A study of Homo sapiens with 9 samples.

Results

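The circadian clock genes described here are 10 genes of the transcription loop that keeps daily time in most human cells: CLOCK, PER1, PER2, CRY1, CRY2, NR1D1, NR1D2, DBP, TEF and BHLHE40. They were chosen by symbol, as the genes whose Ensembl identifiers map to these names, and all 10 were found among the 36810 genes of the expression table. Polyadenylated RNA was sequenced in bulk from 143B, an established human osteosarcoma line derived from HOS cells, grown in RPMI-1640 medium with fetal bovine serum and penicillin-streptomycin. There were 9 libraries in 3 groups of 3. The control libraries were taken at 0 h, and the other groups had received 0.5 µM XD23, a compound that the labels give only as a code, over 24 h or 48 h. The labels mention neither a vehicle nor cells kept without XD23 until 24 h or 48 h, so the compound and the time in culture cannot be told apart in any comparison below. Both treated groups are compared with the same 3 control libraries. Whether the libraries within a group are separate cultures is not stated, so each p-value refers to the spread among these libraries alone. The sampling times lie whole days apart, so the values describe levels and shifts and not a rhythm.

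In the clock, CLOCK pairs with BMAL1 and the pair activates genes through short DNA elements called E-boxes. Among those genes are PER1, PER2, CRY1 and CRY2, whose proteins return to the nucleus and repress the same pair, and NR1D1 and NR1D2, which encode the nuclear receptors REV-ERBα and REV-ERBβ that repress BMAL1. DBP and TEF encode related leucine zipper activators that bind elements called D-boxes, and BHLHE40, also known as DEC1, encodes a repressor that competes for E-boxes and is known to respond to many signals outside the clock, low oxygen among them.

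Levels are given as FPKM, the number of sequenced fragments scaled to gene length and library depth, so they can be compared between genes. The libraries held 18341542 to 22901830 fragments, 12910 to 13345 genes lay above 1 FPKM in each, and 1 fragment per kilobase of gene equalled 0.0437 to 0.0545 FPKM. Of 10 mesenchymal and bone markers, 6 reached 1 FPKM in all 9 libraries, and VIM lay between 296.9 and 389.4 FPKM, whereas COL1A1, COL1A2, THY1 and ALPL, which mark matrix-producing bone and connective tissue cells, were under 1 FPKM in all 9. The summed mesenchymal and bone markers lay at 419.4 to 427.5 FPKM in the control libraries, 422.7 to 514.2 FPKM at 24 h and 449.4 to 479.4 FPKM at 48 h, a sum made up mostly of VIM. Of the 6 tested, 3 fell at 48 h, where 15.2% of all genes tested fell. They were SPARC, from 41.87 to 28.15 FPKM (limma adjusted p = 4.94e-05), RUNX2, from 6.34 to 4.19 FPKM (adjusted p = 0.000189), and CDH2 (adjusted p = 0.0403). VIM went the other way, from 304.1 to 357.1 FPKM (limma adjusted p = 0.0935), as did TWIST1, from 5.894 to 6.685 FPKM (adjusted p = 0.0801). Neither was called, but all their 48 h libraries lay above all control libraries, as in 22.7% of all genes tested. CD44 overlapped the control. No leukocyte, endothelial or neural marker of 5 each reached 1 FPKM in all 9 libraries. The summed leukocyte markers were at most 0.340 FPKM, with MS4A1 at 0 in all 24 h libraries. Endothelial markers summed to 0.440 to 0.556 FPKM in the control, 0.320 to 0.413 FPKM at 24 h and 0.759 to 0.846 FPKM at 48 h. PECAM1, with means of 0.386, 0.250 and 0.658 FPKM, made up most of that sum. Neural markers summed to 2.61 to 2.88, 2.55 to 2.86 and 1.97 to 2.30 FPKM. SNAP25, the only neural marker tested, fell at 48 h from 1.31 to 0.787 FPKM (limma adjusted p = 0.0342), whereas TUBB3 went from 0.471 to 0.547 FPKM. Of 6 epithelial markers, KRT8, KRT18 and EPCAM reached 1 FPKM in all libraries, and these 3 fell at 48 h (15.2% of all genes tested fell). The summed level of the list was 185.1 to 193.5 FPKM in the control libraries, 187.8 to 214.5 FPKM at 24 h and 140.1 to 154.3 FPKM at 48 h. The epithelial sum was made up mostly of KRT18, and CLDN4 went the other way, from 0.575 FPKM in the control to 0.794 FPKM at 48 h. The part of these marker shifts in the clock gene values was not tested.

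The clock genes spanned more than 2 orders of magnitude in level. In the control libraries BHLHE40 was the most abundant, at 41.6 ± 1.17 FPKM (SD, n = 3), followed by NR1D2 at 27.7 ± 0.823 FPKM. CLOCK (6.61 ± 0.497 FPKM) and CRY1 (6.18 ± 0.363 FPKM) came next and overlapped each other. TEF (4.81 ± 0.449 FPKM), NR1D1 (4.11 ± 0.321 FPKM) and PER2 (4.05 ± 0.470 FPKM) followed, each overlapping its neighbour in the order. PER1 lay lower at 2.77 ± 0.341 FPKM, CRY2 at 1.60 ± 0.192 FPKM, and DBP last at 0.271 ± 0.0813 FPKM. The order was the same at 24 h. At 48 h the ranges of CRY1, CLOCK and NR1D1 overlapped from one to the next, NR1D1 having moved past TEF, and PER1 overlapped PER2 and was no longer apart from it. Among protein-coding genes, BHLHE40 ranged over the libraries from the 94.2nd to the 98.7th percentile, NR1D1 from the 55.8th to the 69.6th and DBP from the 23.5th to the 29.1st.

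**Figure D1:**
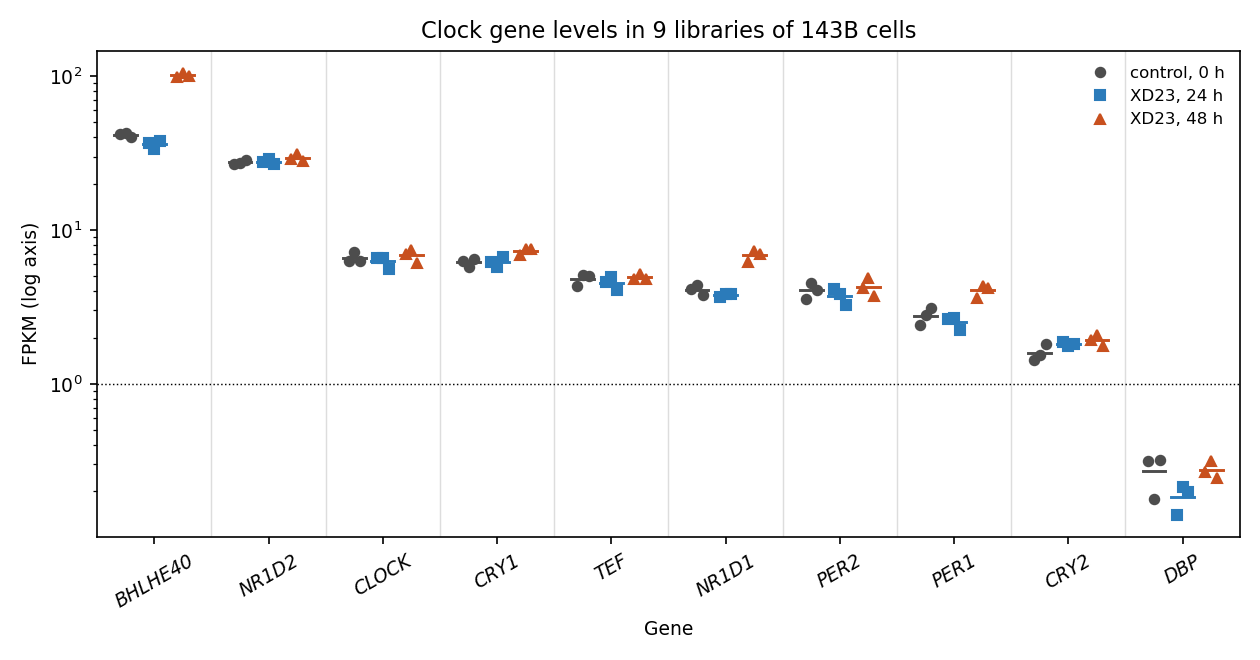
FPKM (log axis) of the 10 clock genes in each of the 9 libraries, with points for single libraries colored by group. BHLHE40, NR1D1, PER1 and CRY1 are the genes whose 3 libraries at 48 h all lie above the 3 control libraries, and DBP lies below 0.32 FPKM throughout.

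The E-boxes at the starts of these genes are shown before the values because the box is the element through which CLOCK acts and BHLHE40 represses. RefSeq promoter windows (build GRCh38.p14, 250 bases before the transcript start and the bases just after it) were matched to all 10 genes by symbol, in 14 windows, since some genes have several starts. Both strands were searched for the E-box CACGTG and for the E′ box CACGTT, a common variant that reads AACGTG when it lies on the opposite strand. Each stretch below is 30 bases, written 5′ to 3′ on the strand of the gene, with the box in capitals and its position counted from the RefSeq start (0). The 4 genes called at 48 h stand first.
BHLHE40 (chr3:4979187-4979216, plus strand, E-box at −245 to −240): tccaaCACGTGagactcatgtgatgaagcc
NR1D1 (chr17:40100740-40100769, minus strand, E′ box at −168 to −163): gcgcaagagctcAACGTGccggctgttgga
PER1 (chr17:8152560-8152589, minus strand, E-box at −173 to −168): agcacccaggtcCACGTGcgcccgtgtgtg
CRY1 (chr12:107093621-107093650, minus strand, E′ box at −89 to −84): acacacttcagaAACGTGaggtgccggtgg
CLOCK (chr4:55546102-55546131, minus strand, E′ box at −187 to −182): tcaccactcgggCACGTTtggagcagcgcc
PER2 (chr2:238288790-238288819, minus strand, E′ box at −197 to −192): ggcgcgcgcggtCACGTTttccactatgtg
CRY2 (chr11:45847275-45847304, plus strand, E′ box at −188 to −183): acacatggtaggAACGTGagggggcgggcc
NR1D2 (chr3:23945954-23945983, plus strand, E-box at −155 to −150): ggcgggcggggaCACGTGaggccgctcggc
NR1D2 (chr3:23946004-23946033, plus strand, E-box at −105 to −100): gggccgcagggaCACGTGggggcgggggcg
TEF (chr22:41367248-41367277, plus strand, E-box at −195 to −190): gcgcgacagctcCACGTGctgcagctggcg
TEF (chr22:41381737-41381766, plus strand, E-box at −193 to −188): cacctggccccgCACGTGtctatcttatcc
Of the 10 genes, 9 held an E-box or an E′ box in at least 1 window, all except DBP. Among all 27305 genes with a window, 14.5% did, a share computed after the matches in the clock genes had been seen. Boxes outside the windows were not searched for, so DBP may hold some elsewhere in the gene. Of the 14 windows, 5 held an E-box and 5 an E′ box, against 7.26% and 5.34% of all 35116 windows. E-boxes are among the features by which such genes became known as clock genes, and the genes that did not pass the test at 48 h had it as well as those that did. In GENCODE release 29 the stretches of BHLHE40 and CRY1 lie in an exon outside the coding sequence, those of PER1, CLOCK, PER2, CRY2, NR1D2 and 1 of the 2 of TEF in an intron, and those of NR1D1 and the other of TEF before every transcript. The D-box, TTATGTAA or TTACGTAA, was found for PER2 and NR1D2 (1.27% of all genes with a window), the ROR element TAGGTCA for CRY2 (2.29%) and the cAMP element TGACGTCA for none of the 10 (2.25%). The hypoxia core ACGTG occurred for 9 of the 10 genes, against 24.9% of all genes, and in 11 of the 14 windows, against 21.4% of all windows, but every E-box and E′ box contains it. A match is a description of letters and not a binding site, and no binding was measured.

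**Figure D2:**
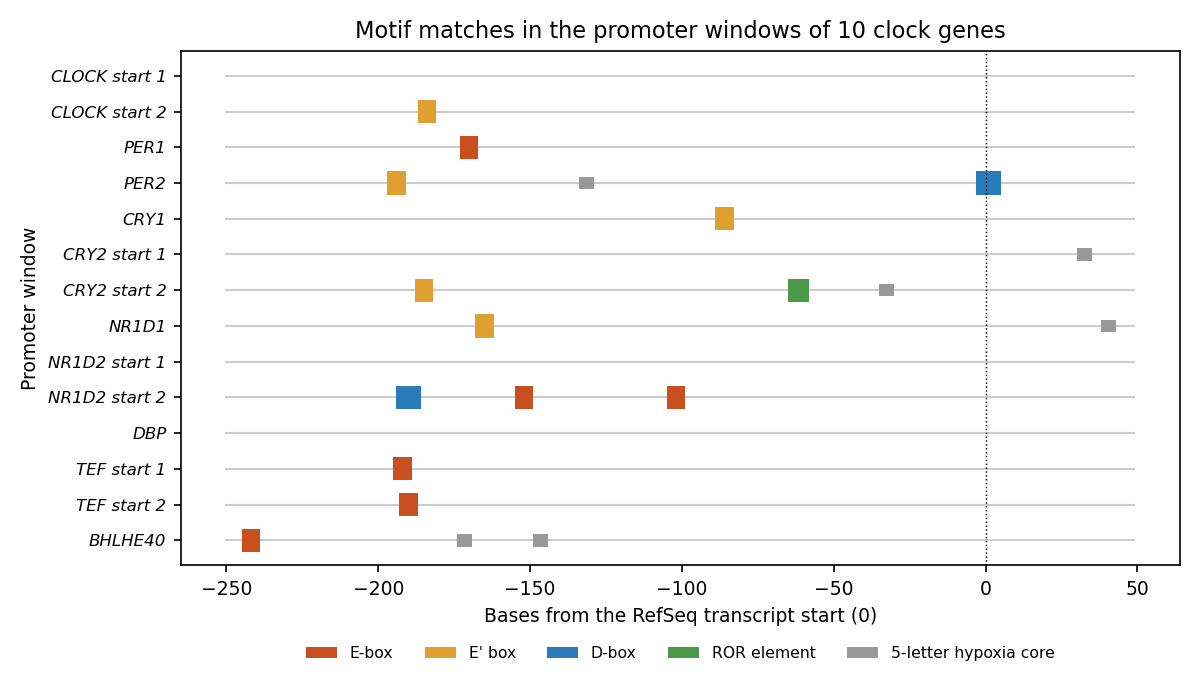
Position in bases from the RefSeq transcript start (0) of each motif match in the 14 promoter windows of the 10 clock genes, one line per window, with bars colored by motif and the hypoxia core drawn only where it lies outside an E-box or E′ box. An E-box or E′ box appears in 10 of the 14 windows, and the DBP window and 1 window each of CLOCK and NR1D2 hold no match.

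At 24 h none of the 9 clock genes that could be tested was called. Only genes reaching 1 FPKM in 3 or more libraries were tested, which left 13657 genes and every clock gene except DBP. The test was limma's moderated test on log2(FPKM + 1), so each difference below is on that scale and understates the change of genes with low values, and the threshold for a call was an adjusted p of 0.05. At 24 h, 0.00732% of all genes tested were called, which is 1 gene, RNU6-548P, chosen for mention after its value was seen, and 0% were called higher. A single clock gene, BHLHE40, had an unadjusted p under 0.05 in this comparison, against 1015 of all genes, and a fit with precision weights on recovered fragments also called 0 of the clock genes. The median difference of the 9 genes was −0.07 against −0.02 over all genes tested. Values were −0.07 ± 0.08 (SE) for CLOCK, −0.10 ± 0.09 for PER1 and −0.09 ± 0.07 for NR1D1, with adjusted p from 0.775 to 0.869. CRY2 and NR1D2 lay above 0, at 0.115 ± 0.074 and 0.005 ± 0.047 (limma adjusted p of 0.756 and 0.982), and CRY1 lay at −0.003 ± 0.061.

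At 48 h, 4 of the 9 genes rose and none fell. BHLHE40, NR1D1, PER1 and CRY1 rose, in that order of size, and CLOCK, PER2, CRY2, NR1D2 and TEF did not pass the test. The 4 genes are 44.4% of those tested, where 28.5% of all genes were called, 13.3% rising and 15.2% falling. The median difference of the 9 genes was 0.17, against −0.03 over all genes tested. In the same 4 genes all 3 libraries at 48 h lay above all 3 control libraries, which held for 22.7% of all genes. Because the RNA came from bulk cultures, a change in a share of the cells and a change in the RNA of each cell cannot be told apart.

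**Figure D3:**
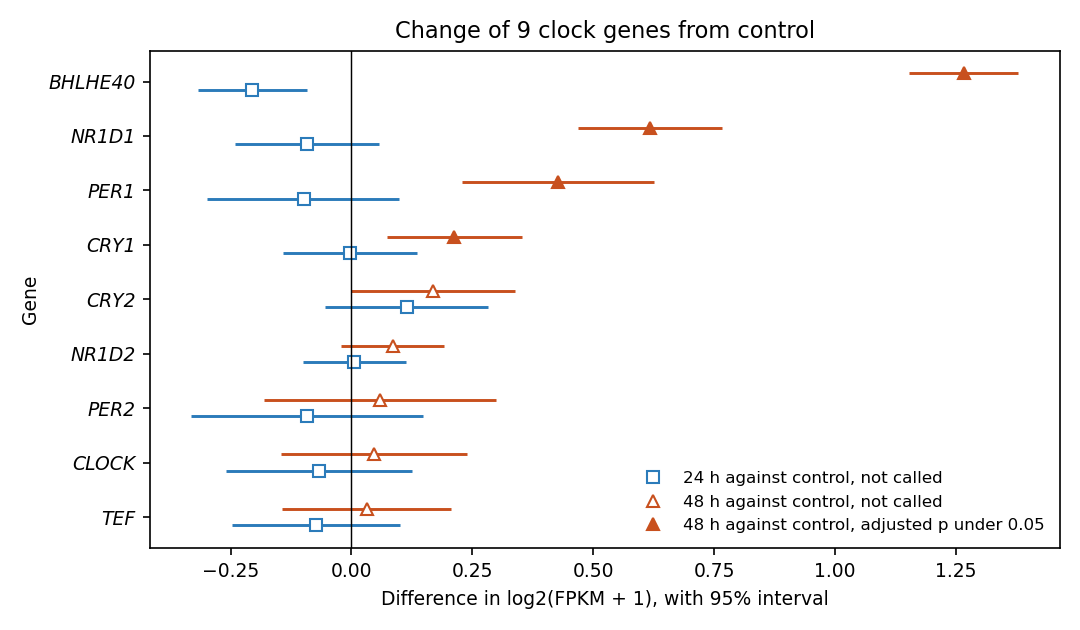
Difference in log2(FPKM + 1) from the control for the 9 tested clock genes at 24 h and at 48 h, with 95% intervals from limma. At 48 h the intervals of BHLHE40, NR1D1, PER1 and CRY1 lie above 0 and that of CRY2, not called, starts at 0.00, and at 24 h the interval of BHLHE40 alone lies off 0, on the low side.

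CLOCK, the activator, was called in no comparison. It stood at 6.32, 7.18 and 6.33 FPKM in the 3 control libraries, at 6.63, 6.61 and 5.58 FPKM at 24 h, and at 7.04, 7.45 and 6.12 FPKM at 48 h. The 3 groups overlapped. At 48 h the difference from control was 0.05 ± 0.08, with a 95% interval from −0.15 to 0.24 and a limma adjusted p of 0.726. These values rest on 1339 to 1967 fragments per library.

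Of the period genes, PER1, which encodes a repressor that also responds quickly to hormones and other signals, rose, and the difference of PER2, its close relative, was not called. PER1 stood at 2.41, 2.79 and 3.09 FPKM in the control libraries, at 2.63, 2.67 and 2.24 FPKM at 24 h, and at 3.64, 4.32 and 4.23 FPKM at 48 h. Every 48 h library lay above every control and every 24 h library. The mean at 48 h was 1.47 times the control mean, a difference of 0.43 ± 0.09 (limma adjusted p = 0.00728). PER2 stood at 3.58, 4.52 and 4.05 FPKM in the control libraries, at 4.12, 3.86 and 3.24 FPKM at 24 h, and at 4.22, 4.88 and 3.71 FPKM at 48 h. All 3 groups of PER2 overlapped. Its difference at 48 h was 0.06 ± 0.11, with a 95% interval from −0.18 to 0.30 and a limma adjusted p of 0.717.

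Of the cryptochrome genes, which encode the main repressors of the CLOCK and BMAL1 pair, CRY1 rose by a small amount at 48 h. CRY1 stood at 6.29, 5.78 and 6.48 FPKM in the control libraries, at 6.15, 5.73 and 6.63 FPKM at 24 h, and at 6.92, 7.51 and 7.54 FPKM at 48 h. The control and 24 h libraries overlapped, and the 48 h libraries lay above both groups. The 48 h mean was 1.19 times the control mean, a difference of 0.21 ± 0.06 (limma adjusted p = 0.0308). This call ended in 5 of 19 alternatives: without any filter (adjusted p = 0.0797) and without the first or the second control library or the second or the third 48 h library (adjusted p of 0.0676, 0.101, 0.0981 and 0.0922). CRY2 stood at 1.44, 1.55 and 1.81 FPKM in the control libraries, at 1.86, 1.75 and 1.82 FPKM at 24 h, and at 1.92, 2.06 and 1.77 FPKM at 48 h. The lowest treated libraries of CRY2 overlapped the highest control library. Its difference at 48 h was 0.17 ± 0.07 with a limma adjusted p of 0.124, and no alternative called it.

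The REV-ERB genes differed in level and in change. NR1D1, which encodes REV-ERBα, stood at 4.13, 4.41 and 3.77 FPKM in the control libraries, at 3.69, 3.81 and 3.85 FPKM at 24 h, and at 6.22, 7.31 and 6.99 FPKM at 48 h. The 24 h values lay within or just under the control range, and all 3 values at 48 h lay above every other library. The 48 h mean was 1.67 times the control mean, a difference of 0.62 ± 0.07 (limma adjusted p = 0.000338), which was the 198th highest of the 13657 genes. NR1D1 shares 263 exon bases, 9.5% of its exons, with THRA, a thyroid hormone receptor gene on the opposite strand, and no source used here states counting by strand, so reads of the shared bases cannot be told apart. THRA stood at 2.03 ± 0.206 FPKM (SD, n = 3) in the control and 2.75 ± 0.00821 FPKM at 48 h, and it rose as well (0.31 ± 0.08, limma adjusted p = 0.0189). NR1D2, which encodes REV-ERBβ, was far more abundant and stood at 27.0, 27.4 and 28.6 FPKM in the control libraries, at 27.9, 28.8 and 26.7 FPKM at 24 h, and at 29.1, 31.0 and 28.1 FPKM at 48 h. Its 3 groups overlapped. The difference at 48 h was 0.08 ± 0.05, with a 95% interval from −0.02 to 0.19 and a limma adjusted p of 0.214.

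Of the D-box activators, TEF was called in no comparison, and the only test of DBP could not give a p under 0.05 whatever its values. TEF stood at 4.30, 5.13 and 5.01 FPKM in the control libraries, at 4.59, 4.93 and 4.05 FPKM at 24 h, and at 4.79, 5.21 and 4.80 FPKM at 48 h. The TEF groups overlapped throughout, and its difference at 48 h was 0.03 ± 0.08 (95% interval from −0.14 to 0.21, limma adjusted p = 0.795). DBP, in many tissues one of the most strongly rhythmic clock transcripts, was listed at 0.317, 0.178 and 0.320 FPKM in the control libraries, at 0.141, 0.214 and 0.197 FPKM at 24 h, and at 0.267, 0.317 and 0.243 FPKM at 48 h. It did not reach the filter and rested on 19 to 47 fragments per library, so it was tested alone with a two-sided exact permutation test on FPKM. The exact p was 0.3 at 24 h and 1 at 48 h against control, and 0.1 for 48 h against 24 h, where 0.1 is the smallest p that 3 against 3 libraries can give. DBP shares 661 exon bases, 10.1% of its exons, with SPHK2 on the opposite strand.

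BHLHE40 showed the largest change of the 10 genes. It stood at 42.0, 42.6 and 40.3 FPKM in the control libraries, at 36.6, 33.5 and 37.9 FPKM at 24 h, and at 99.4, 105.1 and 100 FPKM at 48 h. All 3 libraries at 24 h lay below all 3 control libraries, as in 8.38% of all genes tested, and all 3 libraries at 48 h lay far above both groups. The 24 h difference was −0.21 ± 0.05, with a limma adjusted p of 0.459 (unadjusted p = 0.00274), so it was not called. At 48 h the mean was 2.44 times the control mean, a difference of 1.27 ± 0.05 (limma adjusted p = 6.36e-06), the 19th highest of the 13657 genes. With BHLHE40 set against NR1D2, the next most abundant clock gene, the ratio of mean FPKM was 1.51 in the control, 1.30 at 24 h and 3.45 at 48 h. The 48 h values rest on 7140 to 8464 fragments per library against 2601 to 3015 in the control.

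Set against 24 h, the libraries at 48 h gave the same 4 calls. This comparison shares the 48 h libraries with the one above, so it is no independent support. Of the 9 genes, 4 rose, where 32.3% of all genes were called, 16% rising and 16.3% falling, and all 3 libraries at 48 h lay above all 3 at 24 h in these 4 genes, as in 23.1% of all genes. The mean of BHLHE40 was 2.82 times that at 24 h, a difference of 1.47 ± 0.05 (limma adjusted p = 2.88e-06). For NR1D1 the difference was 0.71 ± 0.07 (adjusted p = 0.00014), for PER1 0.53 ± 0.09 (adjusted p = 0.00227) and for CRY1 0.22 ± 0.06 (adjusted p = 0.0262). Values of the others ran from 0.05 for CRY2 to 0.15 for PER2 and were not called, with adjusted p from 0.230 to 0.611.

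Single libraries stood at the edge of many clock genes. The third 24 h library was the lowest of the 9 for 5 of the 10 genes (CLOCK, PER1, PER2, NR1D2 and TEF), and the second 48 h library was the highest for 8 of the 10. Without the third 24 h library, the 24 h differences were 0.00 for CLOCK and −0.04 for PER1, and the count of calls at 24 h was still 0. Without the second 48 h library, the 48 h difference was 1.24 for BHLHE40 (limma adjusted p = 0.000113), 0.57 for NR1D1 (adjusted p = 0.00229), 0.39 for PER1 (adjusted p = 0.0332) and 0.20 for CRY1 (adjusted p = 0.0981), so the call of CRY1 ended and the other 3 remained.

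The balance within related pairs was examined as the difference of their log2(FPKM + 1) values in each library, and raw ratios of FPKM are given beside it. PER1 stood at 0.685 times PER2 in the control (0.618 to 0.764 over the libraries) and at 0.963 times PER2 at 48 h (0.863 to 1.14). NR1D1 stood at 0.149 times NR1D2 in the control (0.132 to 0.161) and at 0.233 times NR1D2 at 48 h (0.214 to 0.248). In both pairs the 48 h libraries lay above all control libraries. The log2 difference moved by 0.37 for PER1 and PER2 and by 0.53 for NR1D1 and NR1D2, each with a two-sided exact permutation p of 0.1, the smallest that this design can give, and 0.4 after Benjamini-Hochberg adjustment over 8 such tests. CRY1 stood at 3.895 times CRY2 in the control and 3.83 times at 48 h, and the ranges overlapped (exact p = 0.5, adjusted 0.8). For DBP and TEF the log2 difference moved by −0.03 (exact p = 0.7, adjusted 0.933). At 24 h the 4 pairs gave exact p of 0.3 to 1.

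**Figure D4:**
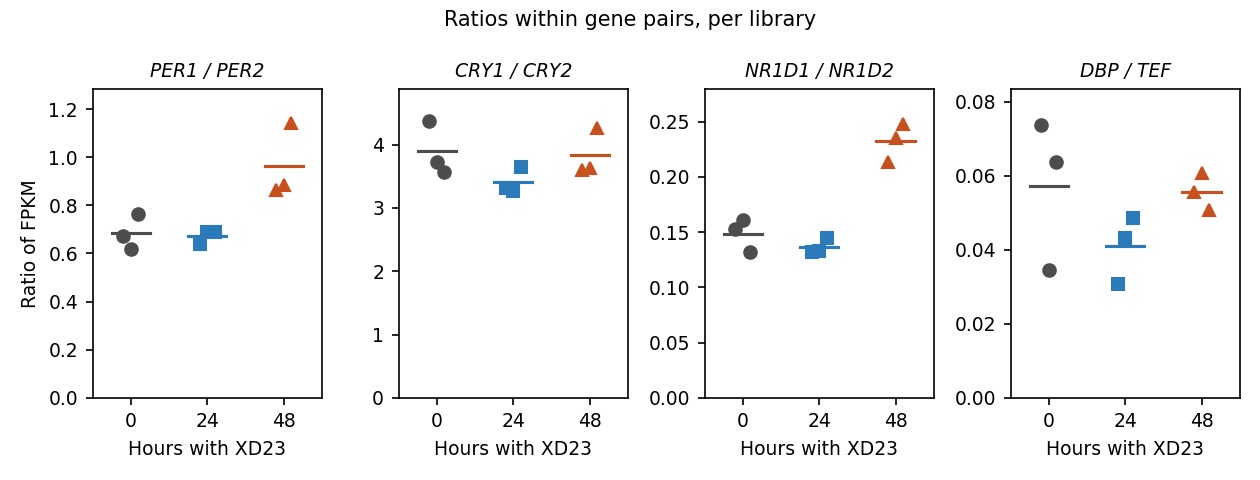
Ratio of FPKM within 4 pairs of related clock genes in each library, plotted against hours with XD23 (0, 24 and 48), each panel on its own linear axis from 0. The ratios of PER1 to PER2 and of NR1D1 to NR1D2 at 48 h lie above all control ratios, and those of CRY1 to CRY2 and DBP to TEF overlap the control.

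Other genes of the clock were taken from lists of the activators, repressors, kinases and degradation factors, chromatin cofactors and output genes. Their counts are to be read against all genes tested, of which 13.3% rose and 15.2% fell at 48 h. Of 6 other activators, 4 were tested, 2 rose at 48 h and none fell, with a median of −0.02. RORA, a receptor that activates through the element that REV-ERB proteins repress, went from 1.55 to 2.51 FPKM (0.46 ± 0.10, limma adjusted p = 0.00874). BMAL2, a relative of BMAL1, went from 21.7 to 24.4 FPKM (0.16 ± 0.05, adjusted p = 0.0401), a call that ended in 11 of 19 alternatives. For the partners of the loop, all 3 libraries at 48 h lay below all 3 control libraries, as in 27.7% of all genes tested, and neither was called. BMAL1 stood at 2.22 FPKM in the control and 1.79 at 48 h (−0.21 ± 0.07, adjusted p = 0.0507), and NPAS2, which can take the place of CLOCK, at 9.43 and 8.10 FPKM (−0.20 ± 0.07, adjusted p = 0.0566). BMAL1 was called lower in 5 of 18 alternatives and NPAS2 in 6 of 19.

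Among 5 other repressors and leucine zipper factors, 3 were tested and 1 rose, with a median of 0.20. That gene was BHLHE41, the close relative of BHLHE40 also known as DEC2, which went from 2.79 to 4.91 FPKM (0.64 ± 0.06, limma adjusted p = 0.000124). PER3 stood at 1.12 FPKM in the control and 1.15 at 48 h (0.02 ± 0.10, adjusted p = 0.91), and NFIL3, which represses at D-boxes, at 10.1 and 11.7 FPKM (0.20 ± 0.08, adjusted p = 0.1). Of 12 kinase and degradation genes, 11 were tested, 3 rose and 1 fell (13.3% and 15.2% of all genes), with a median of 0.12. CSNK1E and CSNK1D, the casein kinases that phosphorylate PER proteins, rose by 0.21 and 0.20, with adjusted p of 0.0249 and 0.0194, calls that ended in 5 and 4 of 19 alternatives. The third to rise was USP7, a deubiquitinase named after its value was seen (0.20 ± 0.03). The gene that fell was FBXL21P, whose symbol marks it as a pseudogene. It went from 3.07 to 2.31 FPKM (limma adjusted p = 0.0307), a call that ended in 6 of 18 alternatives. Of 8 chromatin cofactors none rose and WDR5 fell (−0.14 ± 0.04, adjusted p = 0.04), a call that ended in 12 of 19 alternatives.

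The 7 output genes given here, which are targets of the clock and of other signals, had 4 that rose and 1 that fell (13.3% and 15.2% of all genes), with a median of 0.47. KLF10 went from 15.5 to 25.1 FPKM (0.66 ± 0.05, limma adjusted p = 5.61e-05), KLF9 from 10.4 to 16.7 FPKM (0.64 ± 0.05, adjusted p = 0.000115) and TSC22D3 from 7.69 to 11.5 FPKM (0.52 ± 0.05, adjusted p = 0.000253). KLF9 and KLF10 encode zinc finger factors, and KLF9 and TSC22D3, also known as GILZ, are known glucocorticoid targets. The fourth to rise was the cell cycle inhibitor CDKN1A (0.47), and the gene that fell was WEE1, which encodes a kinase that delays mitotic entry (−0.41), both named after their values were seen. Over all genes tested the median was −0.03.

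**Figure D5:**
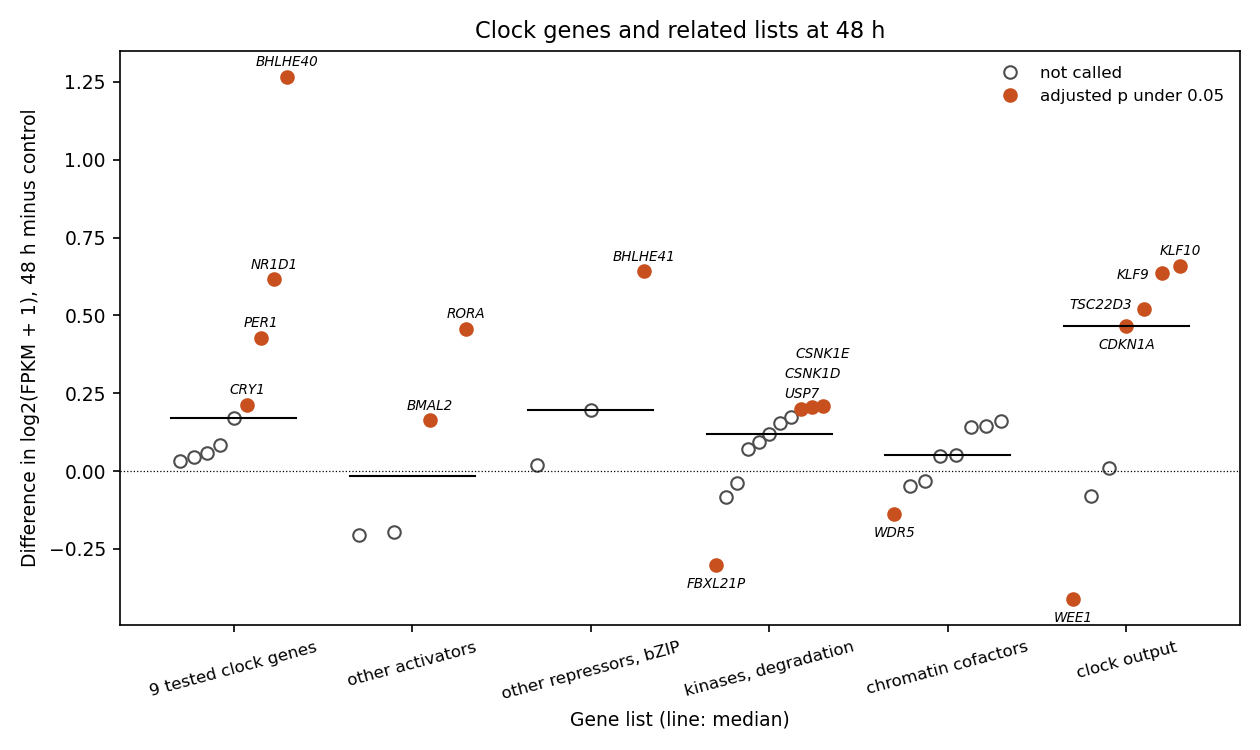
Difference in log2(FPKM + 1) at 48 h against control for the 9 tested clock genes and each tested gene of 5 related lists, with a line at each list's median. Called genes are marked, BHLHE40 stands highest of all at 1.27, and the median of the clock genes is 0.17.

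For each of the 4 genes that rose, the protein-coding gene with the most similar profile was sought among 10855 tested, by the root mean square difference of log2(FPKM + 1) after centring over the 9 libraries. For BHLHE40 it was EGR1, an immediate early transcription factor, with mean levels of 30 FPKM in the control, 28.6 FPKM at 24 h and 76.0 FPKM at 48 h (difference 0.0775, against a spread of 0.653 in BHLHE40 itself). For NR1D1 it was ZBTB10, at 6.55, 6.25 and 10.5 FPKM (difference 0.0343, spread 0.322). For PER1 it was the collagen receptor kinase gene DDR1, at 2.88, 2.73 and 4.31 FPKM (difference 0.0274, spread 0.247), and for CRY1 it was BIVM, at 5.22, 5.18 and 6.21 FPKM (difference 0.0349, spread 0.119). The measure was minimised over many genes and says only that these profiles lie close.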

How the data were processed

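The authors deposited 1 table of FPKM values for 9 libraries. The submitters' processing notes list HISAT2, featureCounts, Subread, DESeq2 and hg38. What each was used for, its version and the annotation are not stated in them. Depth was recovered from the values as whole fragments, to within 0.001 of a fragment, using GENCODE 29 exon lengths for 20926 of 35585 genes (58.8%, PER1 and CRY2 among them) and otherwise, for the other 8 clock genes too, the smallest length giving whole fragments in all 9 libraries, so those fragment numbers rest on that choice. No 2 libraries were identical.

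Values were analysed as log2(FPKM + 1) for 13657 genes with at least 1 FPKM in at least 3 libraries. Group means were estimated together from the 9 libraries in limma 3.58.1 (R 4.3.3, eBayes with trend, Benjamini-Hochberg adjustment, two-sided). The fitting procedure was also run on simulated data with known changes. Those data had independent noise and changes in far fewer genes than were called at 48 h, so that run cannot vouch for the calls here. Tables and exact tests used Python 3.11.15, pandas 2.3.3 and scipy 1.17.1, and figures matplotlib 3.10.9. The members and lists were chosen with earlier results of these data known. All 10 clock genes are named. From each other list up to 3 called genes with the largest change at 48 h are named, and BMAL1, NPAS2, PER3 and NFIL3 always, together with the nearest profile of each called clock gene. A gene of the output list is not reported here, and the counts and median of that list leave it out. E-box stretches of uncalled clock genes were added after their values were seen. Alternatives were other pseudocounts (0.1 or 0.5), filters (none or 5 FPKM) and scalings (median-of-ratios or quantile), no trend, only the groups compared, a replicate block and leaving out each library. Precision weights (voom) on recovered fragments were added after seeing the data.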

Additional observations from a re-analysis of the deposited data

Results flagged for a closer look

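The change at 48 h differed from the change at 24 h, by the limma test of the difference itself, for 13 genes. Of these, 4 are clock genes, of 9 tested, and the rest are other genes chosen by the naming rule. Both changes share the control libraries, so this test is the comparison of 48 h with 24 h. Over all genes tested, 32.3% were called in it. The other genes given below were named because they were called at 48 h against control. That comparison uses the same 48 h libraries, so their calls here are no independent support, and the count of 13 is not to be set against the share of all genes. Among the clock genes the difference was 1.47 for BHLHE40 (adjusted p = 2.88e-06), 0.71 for NR1D1 (adjusted p = 0.00014), 0.53 for PER1 (adjusted p = 0.00227) and 0.22 for CRY1 (adjusted p = 0.0262). The call of CRY1 in this comparison ended in 6 of 19 alternatives.

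Of the other activators and repressors, BHLHE41 differed by 0.68 (adjusted p = 7.74e-05), RORA by 0.62 (adjusted p = 0.00177) and BMAL2 by 0.41 (adjusted p = 0.00055). Of the output genes, KLF9 differed by 0.70 (adjusted p = 5.7e-05), KLF10 by 0.50 (adjusted p = 0.000147) and TSC22D3 by 0.36 (adjusted p = 0.00112). Of the kinases, CSNK1E differed by 0.23 (adjusted p = 0.0161) and CSNK1D by 0.21 (adjusted p = 0.0166), and the chromatin cofactor WDR5 differed by −0.13 (adjusted p = 0.0412). In this comparison the call of WDR5 ended in 14 of 19 alternatives, that of CSNK1D in 2 and that of CSNK1E in 1.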

How the results depend on the processing

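Of 504 values of the clock genes under alternatives, 479 kept their direction and their side of the threshold, 11 lost a call and 14 changed sign. Some alternatives, such as no filter, no trend or a replicate block, cannot change the difference itself. The same holds for leaving out a library of the group not compared. In these the direction was fixed in advance, and only the call could change. Only CRY1 lost a call, and no called difference of a clock gene changed sign. At 48 h against control, adjusted p ran from 4.06e-08 to 0.000155 for BHLHE40, from 0.000138 to 0.00237 for NR1D1, from 0.00174 to 0.0332 for PER1 and from 0.0146 to 0.101 for CRY1. Leaving out 1 library at a time, 3 to 4 clock genes were called at 48 h against control.

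The signs that changed belong to small uncalled differences, and the cause was not tested. For CRY1 at 24 h the value was 0.01 with median-of-ratios scaling and 0.01 with quantile normalization (0.0106 and 0.0122). With 1 library left out, the 24 h values ran from −0.103 to 0.0032 for CLOCK, from −0.0486 to 0.0421 for CRY1 and from −0.0189 to 0.0328 for NR1D2. At 48 h they ran from −0.0073 to 0.117 for CLOCK, from −0.0232 to 0.138 for PER2, from −0.0337 to 0.0713 for TEF and from −0.0195 to 0.0587 for PER3. The log2 ratio of PER1 to PER2 at 24 h ran from −0.0667 to 0.0527, that of DBP to TEF from −0.121 to 0.0649 at 24 h and from −0.119 to 0.0664 at 48 h, and that of CRY1 to CRY2 at 48 h from −0.0117 to 0.101, with −0.0112 at a pseudocount of 0.1.

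Labels give the groups the same replicate numbers. Correlations of deviations from group means ran from −0.057 to 0.239 between same-numbered libraries and from −0.192 to 0.128 between the others. The highest belonged to the third libraries of 24 h and 48 h. Deviations around a mean of 3 libraries are tied to one another, so these values cannot decide whether same-numbered libraries were handled together. With a replicate block, 0, 4 and 4 clock genes were called at 24 h, at 48 h and at 48 h against 24 h. Over all genes, 3891 were called at 48 h against control, 2584 without the second 48 h library and 5132 without the third 24 h library. DBP is limited by depth, and p-values cover only the spread between libraries.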
